A study of Mus musculus with 6 samples.

Results

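The 55 genes described here encode the machinery that folds, translocates and quality-checks proteins in the endoplasmic reticulum (ER), together with the sensors and transcription factors of the unfolded protein response (UPR). They were listed by symbol, 55 of 55 were found on the array, and they are 55 of the 45616 features that were tested, of which 22916 carry a gene symbol. The samples were islet cells of Wnt4eGFPCre; mTmG mice at postnatal day 1. In these animals Cre recombinase is made from the Wnt4 locus and switches a membrane reporter from red to green fluorescence, so that cells that have expressed Wnt4, and their progeny, are labelled green. The label thus records past as well as present expression. Membrane GFP-positive cells (Wnt4hi, replicates 2, 3 and 4) and membrane GFP-negative cells (Wnt4low, replicates 1, 3 and 4) were separated by FACS, and each array received 1 sample from the pooled islets of 4 pups (replicates 1, 2 and 3 of either population) or 3 pups (replicates 4). The methods give Wnt4eGFPCre; mTmG as the islets that were sorted, whereas a supplementary legend writes the genes higher in the GFP-negative fraction as those of Wnt4eGFPCre Tg-; mTmG Tg+, so that whether those cells carry the Cre allele is not settled in the sources used here. No treatment is named. The gate was set on the membrane label, because the native fluorescence of the GFP-Cre protein was too low for sorting, and no cell type marker was used. Whether 2 fractions of the same number came from the same pups is not stated, so that p-values measure the spread between these pools.

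The ER is where insulin and the other islet hormones are made as precursors. A nascent chain enters through the Sec61 channel, loses its signal peptide, may receive a glycan from the oligosaccharyltransferase, and is folded by Hsp70- and Hsp90-type chaperones and by protein disulfide isomerases, which form the disulfide bonds that proinsulin needs. Chains that fail are sent back to the cytosol and destroyed by ER-associated degradation (ERAD). When unfolded chains accumulate, the sensors IRE1 (Ern1), ATF6 and PERK (Eif2ak3) start the UPR: spliced XBP1 and cleaved ATF6 turn on chaperone and ERAD genes, while PERK slows translation and, through ATF4, turns on Ddit3 (CHOP), Trib3 and other stress genes. Islet β-cells are known for a high load on this system, and loss of PERK or of WFS1 causes diabetes.

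Some of these genes carry ER stress response elements in their promoters, which ATF6 and XBP1 are known to bind with the factor NF-Y. The elements are shown because they are set beside the differences between the populations further on. ERSE was searched as CCAAT and CCACG with 9 bases between, and ERSE-II as ATTGG and CCACG with 1 base between, on both strands of the RefSeq promoters of the build GRCm38.p6 (250 bases before to 50 bases after a gene's start). A promoter was held for 45 members, and 11 of them (24.4%) had ERSE or ERSE-II letters, against 49 of all 27025 genes (0.181%) and 51 of 32851 promoters (0.155%). The members were listed as UPR genes, so that this share describes the list. The 12 elements are given here 5′ to 3′ on the strand that reads ERSE from its CCAAT or ERSE-II from its ATTGG, with the letters searched in capitals.
Hspa5 ERSE, chr2:34772025-34772043 (+ strand): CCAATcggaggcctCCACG
Hsp90b1 ERSE, chr10:86705638-86705656 (- strand): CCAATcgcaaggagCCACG
Hsp90b1 ERSE, chr10:86705533-86705551 (+ strand): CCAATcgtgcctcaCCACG
Dnajc3 ERSE, chr14:118937827-118937845 (+ strand): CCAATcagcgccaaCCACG
Creld2 ERSE, chr15:88819520-88819538 (- strand): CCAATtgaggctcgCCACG
Calr ERSE, chr8:84847075-84847093 (+ strand): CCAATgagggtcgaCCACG
Canx ERSE, chr11:50325800-50325818 (- strand): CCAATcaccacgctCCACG
Pdia6 ERSE, chr12:17266491-17266509 (+ strand): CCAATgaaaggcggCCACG
Syvn1 ERSE, chr19:6046532-6046550 (+ strand): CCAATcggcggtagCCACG
Derl3 ERSE, chr10:75893242-75893260 (- strand): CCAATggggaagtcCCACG
Dnajb11 ERSE-II, chr16:22857852-22857862 (+ strand): ATTGGcCCACG
Herpud1 ERSE-II, chr8:94386377-94386387 (+ strand): ATTGGgCCACG

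In Hspa5, the gene of the chaperone BiP, the element ended 47 bases before the start, and in Syvn1 it ended 26 bases before it. The Dnajb11 element was the only one of the 12 after the start. Hsp90b1 held a pair of elements on opposite strands. The 250 bases before the start of 3 members follow, because they carry the element of the central chaperone gene (Hspa5), the element of the member with the lowest p-value (Creld2) and both an ERSE-II and a C/EBP-ATF composite site (Herpud1). The capitals mark the letters found, and those of Creld2 and of the C/EBP-ATF site of Herpud1 lie on the opposite strand, so that the printed letters are the reverse complement of the letters searched.
Hspa5 promoter, chr2:34771840-34772089 (+ strand): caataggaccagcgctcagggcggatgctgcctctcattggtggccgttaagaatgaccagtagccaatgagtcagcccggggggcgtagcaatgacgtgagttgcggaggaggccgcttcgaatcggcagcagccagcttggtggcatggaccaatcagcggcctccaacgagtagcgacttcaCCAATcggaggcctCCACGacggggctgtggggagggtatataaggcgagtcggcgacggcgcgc
Creld2 promoter, chr15:88819396-88819645 (+ strand): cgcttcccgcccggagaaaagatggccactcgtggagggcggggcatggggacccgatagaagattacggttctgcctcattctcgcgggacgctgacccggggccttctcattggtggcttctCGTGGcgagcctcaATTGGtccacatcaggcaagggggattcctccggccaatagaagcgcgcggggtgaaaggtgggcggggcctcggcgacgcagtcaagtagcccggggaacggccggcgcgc
Herpud1 promoter, chr8:94386179-94386428 (+ strand): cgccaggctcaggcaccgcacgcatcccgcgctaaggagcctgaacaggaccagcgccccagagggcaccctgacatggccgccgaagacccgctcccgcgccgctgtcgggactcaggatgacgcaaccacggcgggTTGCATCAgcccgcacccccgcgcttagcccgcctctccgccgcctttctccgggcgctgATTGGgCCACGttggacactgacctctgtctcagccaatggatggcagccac

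The C/EBP-ATF letters TGATGNAA, a form of the site through which ATF4 acts on its targets, were found on either strand in the promoters of 3 members, Herpud1, Trib3 and Chac1, a share of 6.67% against 4.51% of all genes. TGACGTGG, a form of the UPR element of XBP1 whose opposite strand holds the CCACG of ERSE, was found only in Kdelr3 among the members, a share of 2.22% against 0.714%. No promoter sequence was held for 10 members, which include Hyou1, Sec61a1, Ssr2, Spcs3 and Atf6.

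The populations were first checked with the gene that defines them and with cell type markers. Wnt4 had log2 intensities of 11.20, 10.53 and 10.77 in Wnt4hi and 9.85, 10.11 and 9.31 in Wnt4low cells, without overlap (log2 difference 1.08, SE 0.27, adjusted p = 0.212). The sorted fractions differed in cell type markers. Of 10 endothelial markers, 10 had a lower mean in Wnt4hi, 9 passed the unadjusted threshold, also with any array left out, and 7 passed after adjustment (0 to 1 with an array left out, 0 under the replicate block or the t-test), with a median log2 difference of -3.46, and their summed intensity was 4779 to 6641 in Wnt4hi and 30593 to 59466 in Wnt4low. Tek and Tie1 were not well above background on any Wnt4hi array. Of 10 mesenchyme and pericyte markers, 10 had a lower mean in Wnt4hi (median -1.18), as had 9 of 10 leukocyte markers (median -0.58) and 10 of 12 acinar markers (median -0.80). The acinar markers, which come from a cell type rich in ER, had summed intensities of 7988 to 8805 in Wnt4hi and 7715 to 25919 in Wnt4low, where replicate 1 was the lowest. Of 8 duct markers 5 had a higher mean in Wnt4hi (median 0.14, and -0.05 without Wnt4low replicate 4), and of 6 erythroid markers 2 (median -0.20, and 0.08 without Wnt4low replicate 3). Of 10 β-cell markers, 9 had a higher mean in Wnt4hi, with a median of 1.16 and summed intensities of 327985 to 336163 against 190372 to 292872. Their median was 0.75 without Wnt4low replicate 1 and 1.58 without Wnt4low replicate 3. Of 8 markers of the other endocrine cells, 6 had a higher mean in Wnt4hi, with a median of 1.66. The 2 others were both markers of δ-cells, Sst (log2 difference -0.56, SE 0.19, adjusted p = 0.354) and Hhex (-1.75, SE 0.30, adjusted p = 0.0921), whose Wnt4hi arrays all lay below the Wnt4low arrays. In such bulk fractions, fewer cells of a type and less RNA per cell cannot be told apart, and the part of these markers in the results on ER genes was not tested.

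**Figure D1:**
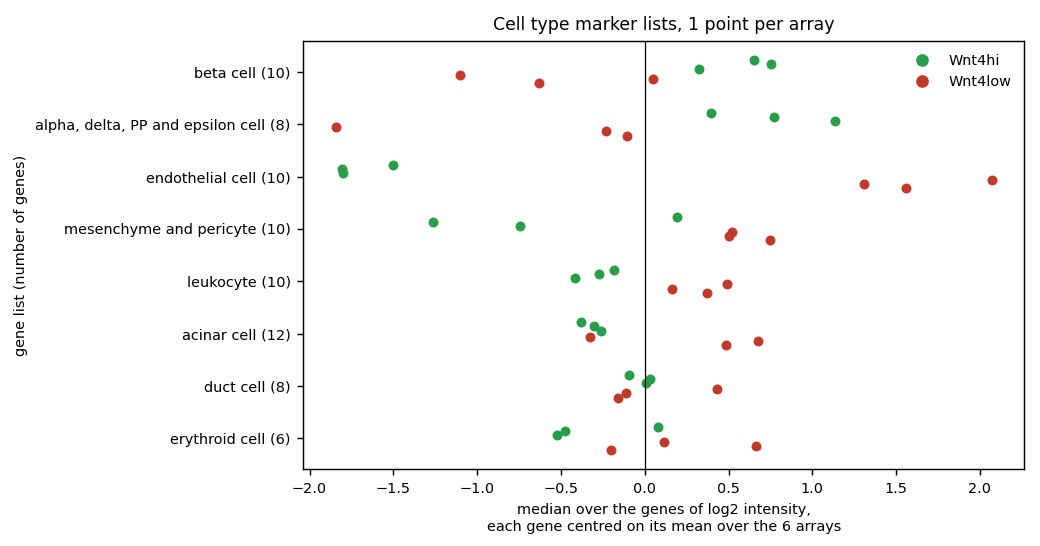
Median of the log2 intensities of 8 cell type marker lists on each array (x axis, each gene centred on its mean over the 6 arrays; 1 point per array, green for Wnt4hi, red for Wnt4low). The endothelial list lies below -1.5 on every Wnt4hi array and above 1.3 on every Wnt4low array, and the β-cell list is lowest in Wnt4low replicate 1, at -1.10.

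Most of the ER genes had a higher mean in the Wnt4hi population. Of the 55 members, 44 had a higher mean in Wnt4hi and 11 a higher mean in Wnt4low, with a median log2 difference of 0.34 and a range of -0.54 to 1.04. At the study's unadjusted threshold of 0.05 in limma, 14 members (25.5%) were higher in Wnt4hi, where 5.02% of all features were, and 0 were higher in Wnt4low, where 5.53% of all features were. Each interval given here is the 95% interval of limma, which leaves out 0 where this threshold was passed. After Benjamini-Hochberg adjustment over all features 0 members passed, against 0.438% of all features, and the lowest adjusted p was 0.184 (Creld2). All 3 Wnt4hi arrays lay above all 3 Wnt4low arrays for 16 members (9.56% of all features), below them for 0 members (6.44% of all features), and the arrays overlapped for 39. With 3 arrays per population an exact permutation test of a single gene cannot go below p = 0.1.

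All features leaned the same way, with a median of 0.07 and 63.5% of them higher in Wnt4hi. The members are bright genes, 52 of them well above background on all 6 arrays. Among the 28998 features of which this was true, the median was 0.09, 64.8% were higher in Wnt4hi, and 6.20% were higher at the unadjusted threshold.

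**Figure D2:**
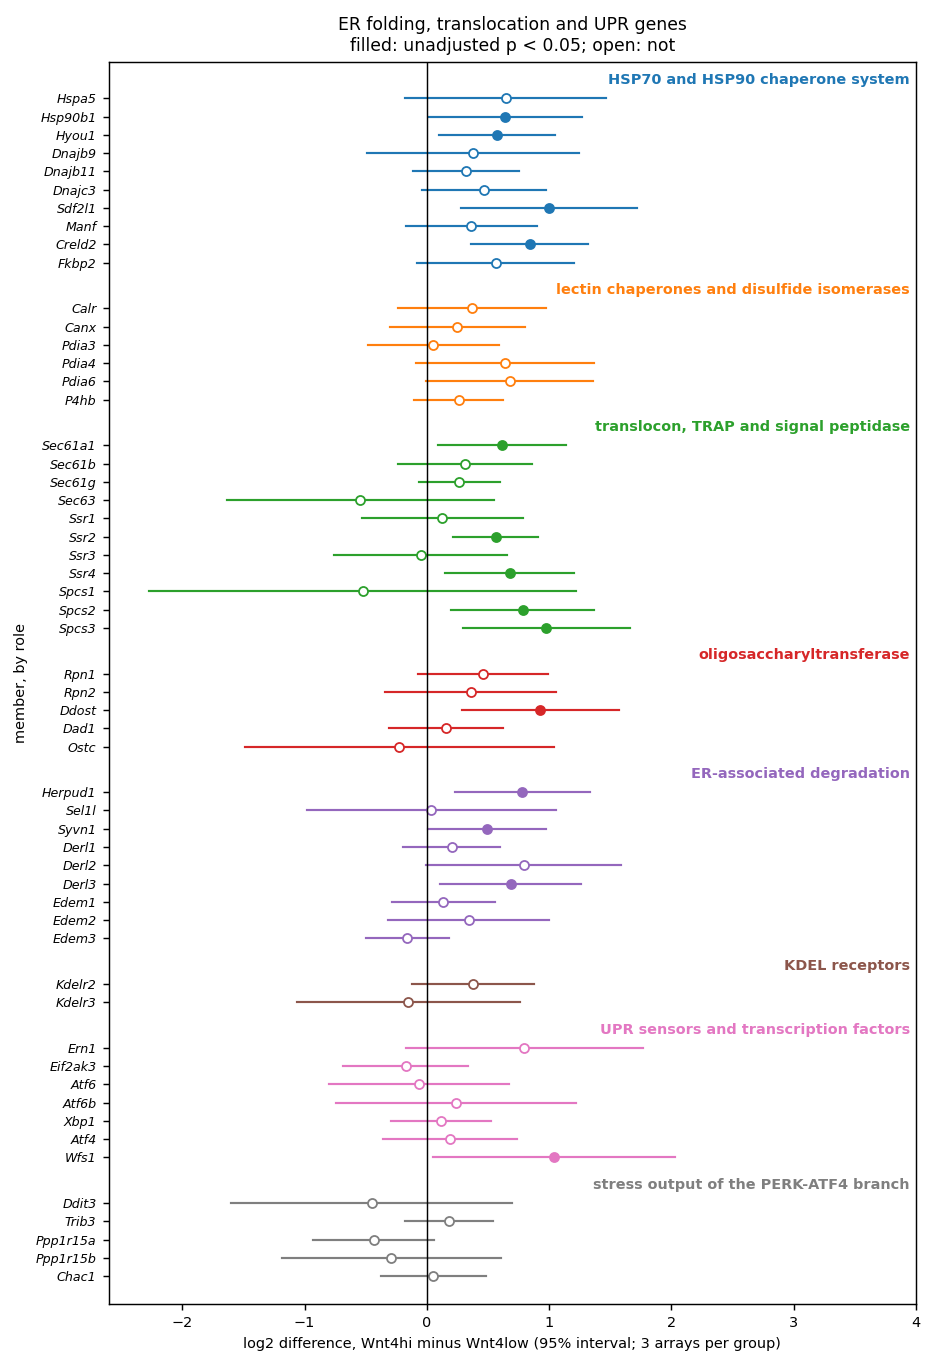
Log2 difference (Wnt4hi minus Wnt4low, x axis) of the 55 members by role, with 95% intervals from limma. The 14 filled points passed the unadjusted threshold, and all of them lie to the right of 0, between 0.49 (Syvn1) and 1.04 (Wfs1).

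The chaperone system around BiP and GRP94 had the highest median of the role groups with all arrays in the fit but not without Wnt4low replicate 1. All 10 of its members had a higher mean in Wnt4hi, where 63.5% of all features had one, with a median log2 difference of 0.57. Of the 10, 4 passed the unadjusted threshold (Sdf2l1, Creld2, Hsp90b1 and Hyou1), where 5.02% of all features did. In what follows, array values are log2 intensities of Wnt4hi replicates 2, 3 and 4 and then of Wnt4low replicates 1, 3 and 4. Sdf2l1, a partner of the J-domain cochaperone ERdj3 that keeps misfolded chains soluble, had 14.02, 13.21 and 14.29 in Wnt4hi and 12.65, 12.90 and 12.97 in Wnt4low cells. Its populations did not overlap, and its mean was 2.00-fold higher in Wnt4hi (log2 difference 1.00, SE 0.30, adjusted p = 0.289). Creld2, an ER-resident disulfide isomerase-like protein that is induced by stress, had 12.64, 12.23 and 12.85 against 11.74, 11.58 and 11.87, also without overlap (log2 difference 0.84, SE 0.20, adjusted p = 0.184). The lowest Wnt4hi array of Creld2 was thus above the highest Wnt4low array by 0.36, more than either SD (0.31 in Wnt4hi and 0.15 in Wnt4low).

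Hsp90b1 encodes GRP94, the Hsp90 of the ER, which folds integrins, Toll-like receptors and insulin-like growth factors and binds proinsulin. It had 14.47, 14.02 and 14.81 in Wnt4hi and 13.50, 14.10 and 13.77 in Wnt4low cells. Wnt4hi replicate 3 lay below Wnt4low replicate 3, so that the populations overlapped, and the difference passed narrowly (log2 difference 0.64, SE 0.26, adjusted p = 0.459). Hyou1, a nucleotide exchange factor of BiP, was 1.49-fold higher without overlap (log2 difference 0.57, SE 0.19, adjusted p = 0.361).

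Hspa5 itself, the central chaperone and the best-known UPR target, did not pass. Its values were 13.76, 13.48 and 13.94 in Wnt4hi and 12.36, 13.60 and 13.28 in Wnt4low cells. A single array, Wnt4low replicate 1, lay 0.92 below the next lowest, and Wnt4low replicate 3 lay above Wnt4hi replicate 3. The log2 difference was 0.65 (95% interval -0.18 to 1.47), and the 2 other Hspa5 probes gave 0.52 and 0.74. Without Wnt4low replicate 1 the difference was 0.29, and without Wnt4low replicate 3 it was 0.90 and passed. The cochaperones Dnajb9, Dnajb11 and Dnajc3, the stress-induced neurotrophic factor Manf and the prolyl isomerase Fkbp2 had differences between 0.32 and 0.56 and did not pass either. Of these, Fkbp2 did not overlap between populations. Dnajb9 (0.77) and Dnajc3 (0.68) passed without Wnt4low replicate 4 and Fkbp2 (0.74) without Wnt4low replicate 3. Without Wnt4low replicate 1, Dnajb9 fell to 0.09 and Fkbp2 to 0.27, and Manf fell to 0.14 without Wnt4hi replicate 4. The second Manf probe gave 0.88 and did not pass.

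The lectin chaperones and disulfide isomerases lay in the same direction with a lower median. Calnexin and calreticulin hold glycoproteins until they fold, and the isomerases make and reshuffle disulfide bonds. All 6 members (Calr, Canx, Pdia3, Pdia4, Pdia6 and P4hb) had a higher mean in Wnt4hi, where 63.5% of all features had one. Their median was 0.31, and 0 passed, where 5.02% of all features did. Without Wnt4low replicate 4 the median was 0.52 and 2 passed (Calr and Pdia4), and 1 passed without Wnt4hi replicate 2 (Pdia4) or 3 (Pdia6). P4hb, the archetypal disulfide isomerase PDI, had 12.10, 12.26 and 12.18 against 11.98, 12.07 and 11.71, without overlap, at a difference of 0.26 (95% interval -0.10 to 0.62). Pdia6 (0.68, 95% interval -0.0036 to 1.36) and Pdia4 (0.64, 95% interval -0.09 to 1.36) had the largest differences of the 6, and the arrays of both overlapped. Pdia3 was close to 0 at 0.05 (95% interval -0.48 to 0.59).

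Of the 11 members of the entry route into the ER, 8 had a higher mean in Wnt4hi, where 63.5% of all features had one, and 3 in Wnt4low. The median was 0.31, and 5 passed, where 5.02% of all features did. The median was 0.18 without Wnt4hi replicate 4 and at most 0.43 over the arrays left out. In the signal peptidase complex, which cuts the signal peptide from preproinsulin and other secretory precursors, Spcs3 had 12.67, 12.38 and 13.23 in Wnt4hi and 11.38, 12.00 and 11.97 in Wnt4low cells, a 1.97-fold difference without overlap (log2 difference 0.98, SE 0.28, adjusted p = 0.274). Spcs2 had 10.79, 11.51 and 11.45 against 10.30, 10.71 and 10.38, also without overlap (log2 difference 0.78, SE 0.24, adjusted p = 0.307). The third subunit listed, Spcs1, had 12.52, 12.57 and 12.75 against 14.89, 12.14 and 12.40. Wnt4low replicate 1 lay 2.14 above the next highest array there, and the difference of -0.53 (95% interval -2.27 to 1.22) rested on it, since without that array Spcs1 was at 0.34.

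The translocon-associated protein complex (TRAP) helps weak signal sequences, among them that of preproinsulin, to open the Sec61 channel. Its subunit Ssr4 had 12.16, 12.31 and 12.52 in Wnt4hi and 11.30, 12.01 and 11.65 in Wnt4low cells, without overlap (log2 difference 0.68, SE 0.22, adjusted p = 0.333). Ssr2 was 1.48-fold higher with a narrow spread of 0.16 and 0.10 (SD) and no overlap (log2 difference 0.56, SE 0.14, adjusted p = 0.218). A second probe of either gene gave a similar difference, 0.78 for Ssr4 and 0.59 for Ssr2. The subunits Ssr1 (0.12, 95% interval -0.53 to 0.78) and Ssr3 (-0.05, 95% interval -0.76 to 0.66) did not pass, and their arrays overlapped. Their second probes gave 0.51 and 0.07, so that the size for Ssr1 depends on the probe. Whether the subunits of TRAP differ from each other was not tested.

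Of the channel itself, Sec61a1, the pore-forming subunit, was 1.53-fold higher on its brightest probe (log2 difference 0.62, SE 0.22, adjusted p = 0.379), without overlap. The 2 dimmer Sec61a1 probes gave 0.28 and 0.01, so that the call belongs to 1 probe of 3. Sec61b and Sec61g were at 0.31 and 0.27 and did not pass, although the arrays of Sec61g did not overlap. Without Wnt4hi replicate 4 they were at 0.11 and 0.18. Sec63, the J-domain protein that recruits BiP to the channel, had the lowest difference of all members with all arrays in the fit, -0.54 (95% interval -1.63 to 0.55). Its spreads were wide in both populations (SD 0.67 and 0.64). The Sec63 difference was -0.90 without Wnt4hi replicate 4 and -0.23 without Wnt4hi replicate 2, and its second probe gave -0.24.

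The oligosaccharyltransferase transfers the preassembled glycan to asparagine residues of the incoming chain. Of its 5 members, 4 had a higher mean in Wnt4hi (median 0.36), where 63.5% of all features had one, and 1 passed, where 5.02% of all features did. The median ranged from 0.23, without Wnt4hi replicate 4, to 0.49, without Wnt4hi replicate 3, where Rpn1 passed as well. The member that passed with all arrays was Ddost, a subunit that all forms of the complex share, with 12.64, 12.43 and 13.24 in Wnt4hi and 11.73, 12.18 and 11.62 in Wnt4low cells. The lowest Wnt4hi array was 0.26 above the highest Wnt4low array, and the mean was 1.90-fold higher (log2 difference 0.93, SE 0.26, adjusted p = 0.269). Rpn1 (0.46, 95% interval -0.08 to 0.99), Rpn2 (0.36, 95% interval -0.34 to 1.06) and Dad1 (0.16, 95% interval -0.31 to 0.62) lay on the same side without passing, and Rpn2 was at 0.04 without Wnt4hi replicate 4. Ostc was at -0.22 (95% interval -1.48 to 1.04), with its Wnt4hi arrays spread over 1.83 log2 units.

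Of the 9 ERAD members, 8 had a higher mean in Wnt4hi (median 0.34), where 63.5% of all features had one, and 3 passed, where 5.02% of all features did. Herpud1 gathers the retrotranslocation complex at the ER membrane and is one of the genes most readily induced by the UPR. It had 10.81, 11.56 and 11.26 against 10.28, 10.64 and 10.37, without overlap (log2 difference 0.78, SE 0.23, adjusted p = 0.282), and its second probe gave 0.50. Syvn1 encodes HRD1, the ubiquitin ligase of the complex. Its values of 10.24, 10.91 and 10.63 against 10.17, 10.00 and 10.13 were separated by 0.07 (log2 difference 0.49, SE 0.20, adjusted p = 0.459). Derl3, a derlin typical of secretory cells, was dim, with 7.77, 8.33 and 8.49 against 7.44, 7.78 and 7.32. Its probe was well above background on 2 of 3 Wnt4low arrays, Wnt4low replicate 3 narrowly exceeded Wnt4hi replicate 2, and the difference passed (log2 difference 0.68, SE 0.24, adjusted p = 0.372).

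Sel1l, the scaffold that holds HRD1, did not pass. It had 11.69, 10.67 and 10.51 in Wnt4hi and 10.98, 10.30 and 11.48 in Wnt4low cells, so that the populations were interleaved, with a difference of 0.04 (95% interval -0.98 to 1.06). Derl2 was at 0.79 (95% interval -0.0044 to 1.59) without overlap and Derl1 at 0.20. The mannosidase-like proteins that mark glycoproteins for disposal, Edem1, Edem2 and Edem3, were at 0.13, 0.34 and -0.16, and the second probes of Edem1 and Edem3 had the opposite sign to the first. The KDEL receptors return escaped ER proteins from the Golgi apparatus. Kdelr2 was at 0.38 (95% interval -0.12 to 0.88) and the dim Kdelr3, well above background on 2 of 3 Wnt4hi arrays, at -0.15 (95% interval -1.06 to 0.76).

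**Figure D3:**
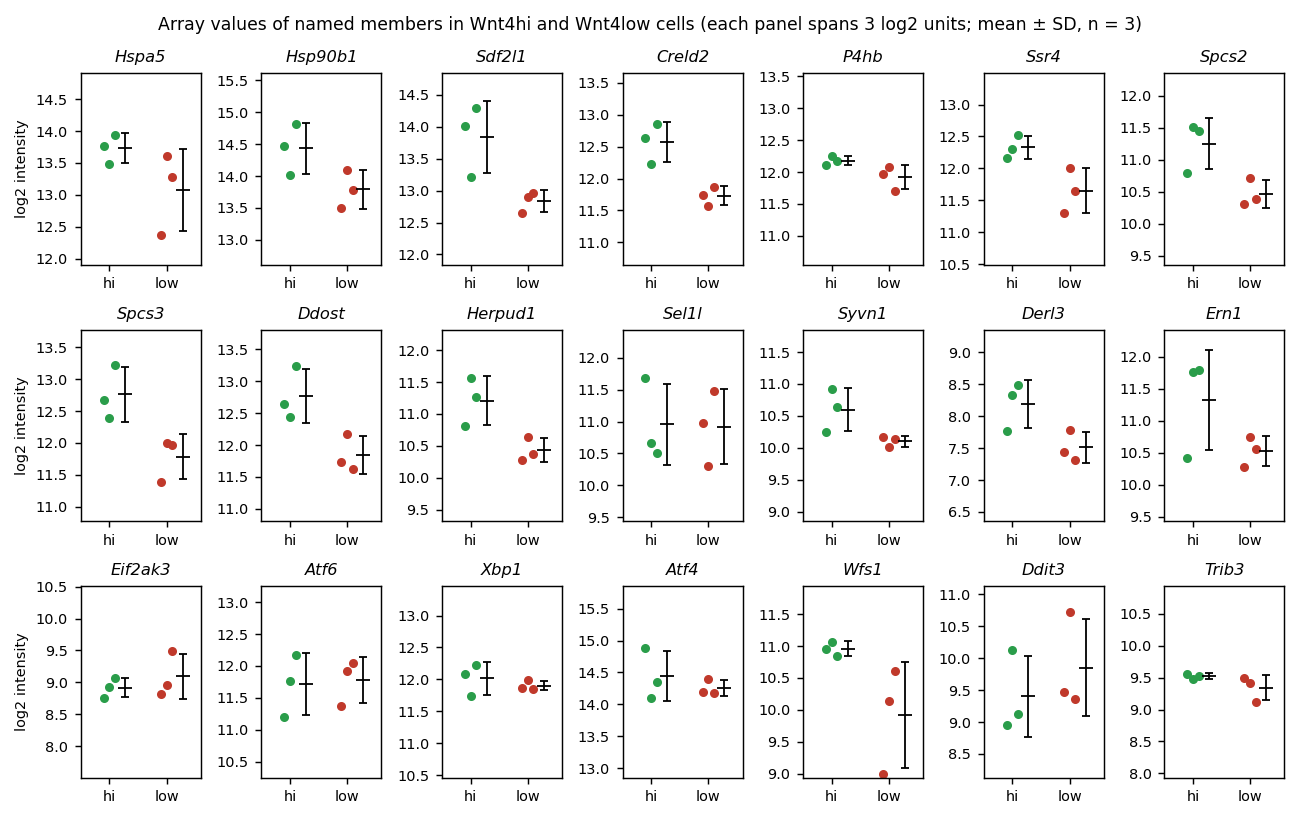
Log2 intensity (y axis, 3 log2 units in every panel) of 21 named members on each Wnt4hi (green) and Wnt4low (red) array, with the mean and SD of the 3 arrays beside the points. Creld2, Spcs3, Ddost and Herpud1 show separate populations, whereas Atf6, Sel1l and Ddit3 are interleaved, and Hspa5 and Wfs1 each have 1 low point, Wnt4low replicate 1.

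The sensors and transcription factors of the UPR, with which Wfs1 was grouped, had a lower median than the chaperones, and the difference between the groups was not tested. Of 7 members, 5 had a higher mean in Wnt4hi, where 63.5% of all features had one, the median was 0.19, and 1 passed, where 5.02% of all features did. The median was 0.09 without Wnt4hi replicate 2 or Wnt4low replicate 4. The member that passed was Wfs1, an ER membrane protein mutated in Wolfram syndrome, which restrains ATF6 and is abundant in β-cells. It is neither a sensor nor a transcription factor, and the 6 genes of the group that are did not pass with all arrays in the fit. The values that follow are those of Wfs1. It had 10.96, 11.07 and 10.84 in Wnt4hi and 8.99, 10.15 and 10.61 in Wnt4low cells, the largest difference among the members (log2 difference 1.04, SE 0.41, adjusted p = 0.445). The Wnt4hi arrays lay within 0.23 of each other, and the Wnt4low arrays spread over 1.61, with replicate 1 the lowest. Wnt4low replicate 1 was also the array with the lowest summed β-cell markers, 190372, and without it the Wfs1 difference was 0.58 and still passed. Wfs1 did not pass without Wnt4hi replicate 2, 3 or 4 or without Wnt4low replicate 3.

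Ern1, which encodes the sensor IRE1α, had 10.41, 11.76 and 11.80 against 10.28, 10.75 and 10.56. Wnt4hi replicates 3 and 4 were above every Wnt4low array, while replicate 2 lay among them, and the difference of 0.80 (95% interval -0.17 to 1.77) did not pass. Eif2ak3, the PERK sensor, had 8.76, 8.93 and 9.06 against 8.82, 8.96 and 9.49, a difference of -0.17 (95% interval -0.69 to 0.34). Atf6 had 11.21, 11.77 and 12.17 against 11.37, 11.91 and 12.05, a difference of -0.07 (95% interval -0.80 to 0.67), and Atf6b was at 0.24 (95% interval -0.74 to 1.22). None of these 4 sensor genes passed, and the signs of Eif2ak3, Atf6 and Atf6b turned when single arrays were left out. Without Wnt4hi replicate 2 the difference of Ern1 was 1.25 and passed.

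The transcripts of the transcription factors Xbp1 and Atf4 did not pass on the probes that stood for them. Xbp1 had 12.08, 11.73 and 12.23 in Wnt4hi and 11.86, 11.99 and 11.85 in Wnt4low cells, at 0.11 (95% interval -0.30 to 0.52). Its brightest probe stood for the gene, and the 2 dimmer probes gave 0.64, which would have passed, and 0.35, so that the size for Xbp1 depends on the probe, and whether any of them tells the spliced from the unspliced transcript was not examined. Atf4 had 14.88, 14.11 and 14.35 against 14.20, 14.39 and 14.17, at 0.19 (95% interval -0.36 to 0.74). The activity of both factors depends on splicing or translation, which an array does not measure.

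The group of the stress output of the PERK-ATF4 branch, which also holds the constitutive Ppp1r15b, did not pass in any of its 5 members with all arrays in the fit. Ddit3, the proapoptotic factor CHOP, had 8.96, 10.12 and 9.12 in Wnt4hi and 9.47, 10.73 and 9.36 in Wnt4low cells. The highest array of either population was its replicate 3, the other 4 arrays lay within 0.51 of each other, and the difference was -0.45 (95% interval -1.60 to 0.70). It was -0.01 without Wnt4low replicate 3 and -0.81 without Wnt4hi replicate 3. Trib3, a pseudokinase induced by ATF4 and CHOP, had 9.56, 9.48 and 9.53 against 9.49, 9.41 and 9.12, at 0.18 (95% interval -0.18 to 0.54). Ppp1r15a (GADD34), which ends the translational arrest, was at -0.44 (95% interval -0.93 to 0.06), its constitutive relative Ppp1r15b at -0.29 (95% interval -1.19 to 0.61), and Chac1, a glutathione-degrading enzyme well above background on only 1 array of each population, at 0.05 (95% interval -0.38 to 0.48). Ppp1r15a was at -0.61 without Wnt4hi replicate 2 and passed toward Wnt4low there, as it did in the authors' table (-0.50). The median of the 5 differences was -0.29, which is the value of Ppp1r15b, with a range of -0.40 to 0.01 over the arrays left out. The medians of the centred values of the 5 genes on each array were 0.11, 0.05 and 0.05 in Wnt4hi and -0.08, 0.13 and -0.26 in Wnt4low, so that the direction of this group depends on how it is summarised.

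**Figure D4:**
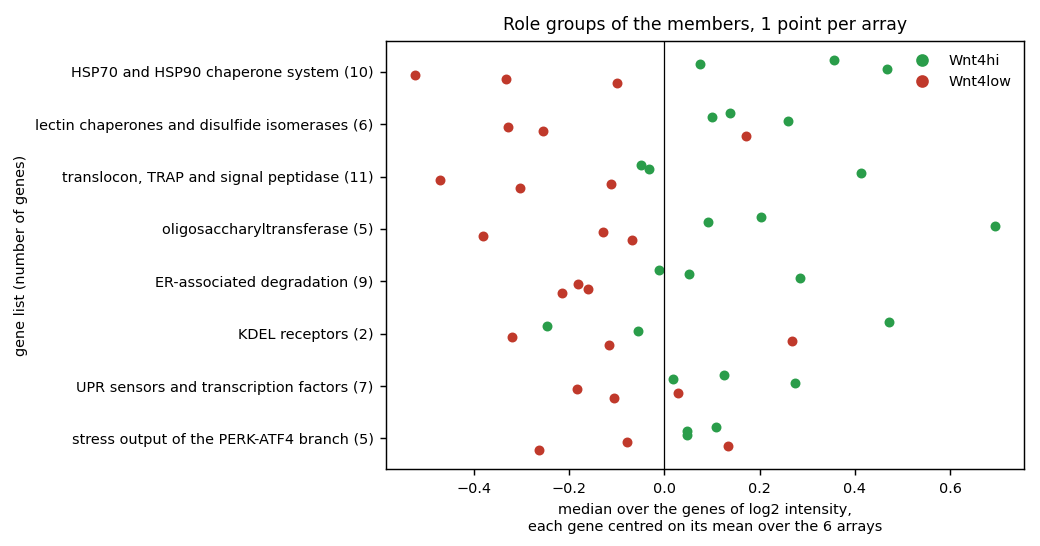
Median of the log2 intensities of each role group on each array (x axis, each gene centred on its mean over the 6 arrays; 1 point per array, green for Wnt4hi, red for Wnt4low). The populations are apart for the Hsp70 and Hsp90 system, the entry route, the oligosaccharyltransferase and ERAD, and overlap for the lectin chaperones, the KDEL receptors, the UPR sensors and factors and the PERK-ATF4 output.

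Over all 55 members, the median centred value was 0.11, 0.05 and 0.32 on the Wnt4hi arrays and -0.32, -0.14 and -0.18 on the Wnt4low arrays. The value was highest in Wnt4hi replicate 4, which was the highest array for 23 members, and lowest in Wnt4low replicate 1, which was the lowest array for 23 members. With one or the other of these arrays left out, 7 members (12.7%) in place of 14 passed the unadjusted threshold toward Wnt4hi, where 4.56% of all features did without Wnt4hi replicate 4 and 3.50% without Wnt4low replicate 1. The passing members of the Hsp70 and Hsp90 system fell from 4 to 2 without one or the other, as they did without Wnt4hi replicate 2, and those of the entry route from 5 to 2. Those of ERAD fell from 3 to 2 without Wnt4hi replicate 4 and to 1 without Wnt4low replicate 1, Wnt4low replicate 4 or Wnt4hi replicate 3. The median difference was 0.26 without Wnt4hi replicate 4 and 0.29 without Wnt4low replicate 1. In the Hsp70 and Hsp90 system the arrays had 0.36, 0.08 and 0.47 in Wnt4hi and -0.52, -0.33 and -0.10 in Wnt4low, and its median difference fell from 0.57 to 0.33 without Wnt4low replicate 1, below the entry route (0.43) and the oligosaccharyltransferase (0.38). Of the 14 members, 6 passed whichever single array was left out (Creld2, Sdf2l1, Ssr2, Spcs3, Ddost and Herpud1), and the other 8 lost the call without at least 1 array. Of the 41 members that did not pass, 11 passed toward Wnt4hi with some array left out (Hspa5, Dnajb9, Dnajc3, Fkbp2, Calr, Pdia4, Pdia6, Rpn1, Derl2, Kdelr2 and Ern1) and 1 toward Wnt4low (Ppp1r15a). The sign of the difference turned with some array left out for 14 members, of which 0 were among those that passed. Creld2, Spcs3 and Herpud1 passed under each of the 19 alternatives to the processing described here, arrays left out included, Ssr2 and Ddost under 18, and Sdf2l1 under 17.

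Of the 84 probes of the 55 genes, 29 belonged to a gene with a brighter probe, and 28 of these were well above background on all arrays. The sign of the difference was the same as that of the brighter probe for 23 of the 28 and opposite for 5, those of Ssr3, Dad1, Sel1l, Edem1 and Edem3. Dnajb11 did not pass on its brightest probe (0.32, 95% interval -0.11 to 0.75), and its second probe above background gave 0.69, which would have passed. Of the 2 dimmer Hyou1 probes, one gave 0.82, which passed, and the other 0.78, which did not.

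The ER stress response elements given above were then set beside the differences. All 11 members with ERSE or ERSE-II letters had a higher mean in Wnt4hi, where 44 of all 55 members and 63.5% of all features had one. Their median was 0.64, and 5 of them passed (Hsp90b1, Creld2, Herpud1, Syvn1 and Derl3), where 5.02% of all features did. Without Wnt4hi replicate 4 or Wnt4low replicate 1, 2 of the 11 passed (Creld2 and Herpud1), with medians of 0.47 and 0.51, and all 11 kept a higher mean in Wnt4hi whichever array was left out. Of the 34 members whose promoter did not hold these letters, 26 had a higher mean in Wnt4hi, with a median of 0.21, and 5 passed (Sdf2l1, Ssr4, Spcs2, Ddost and Wfs1). Of these 34, 3 passed without one or the other of the same arrays, with medians of 0.18 without Wnt4hi replicate 4 and 0.25 without Wnt4low replicate 1. The ERSE genes with the smallest differences were Canx at 0.25 and Dnajb11 at 0.32, and the others lay between 0.37 (Calr) and 0.84 (Creld2). The 2 sets were not tested against each other, the element was searched only by exact letters, and 8 of the 11 belong to the chaperone and isomerase groups. Of the 3 members with C/EBP-ATF letters, Trib3 and Chac1 were at 0.18 and 0.05, and Herpud1, which holds the ERSE-II letters as well, was at 0.78.

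**Figure D5:**
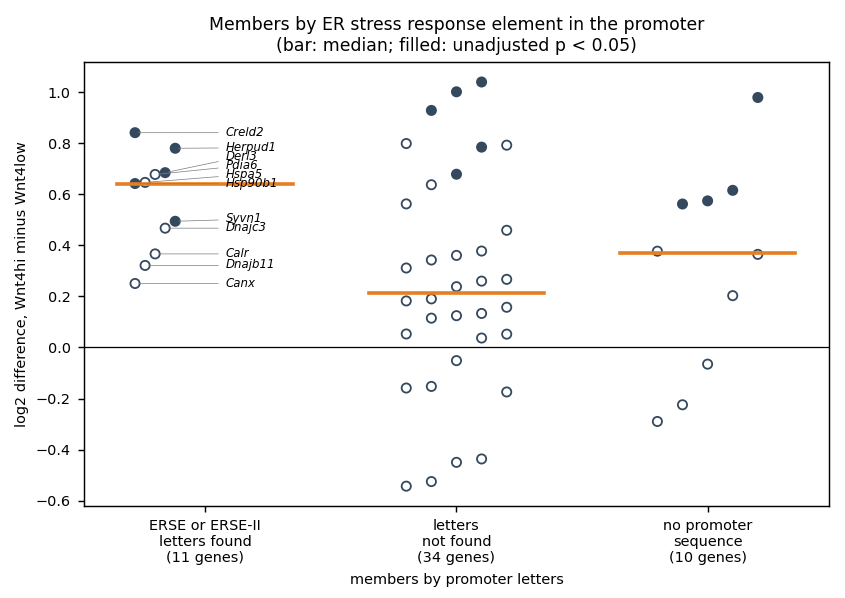
Log2 difference (Wnt4hi minus Wnt4low, y axis) of the members with ERSE or ERSE-II letters in the promoter, without them, and with no promoter sequence held (1 point per gene, filled where the unadjusted threshold was passed, bar for the median). The 11 genes with the letters all lie above 0, around a median of 0.64, and those without reach from -0.54 to 1.04 around 0.21.

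Further genes of the same pathways had a lower median difference. Of 120 such genes in 6 lists, 75 had a higher mean in Wnt4hi (62.5%, against 63.5% of all features), with a median of 0.12, which was 0.07 over all features. At the unadjusted threshold 17 (14.2%, against 5.02% of all features) were higher in Wnt4hi and 3 (2.50%, against 5.53%) in Wnt4low. With an array left out 9 to 16 were higher in Wnt4hi, the fewest without Wnt4low replicate 3, and 2 to 5 in Wnt4low. Under the replicate block 7 were higher in Wnt4hi and 8 in Wnt4low, and with the methods' t-test 8 and 2. The median was highest for ER to Golgi transport, 0.30, where 16 of 20 genes had a higher mean in Wnt4hi and 4 passed. Tmed3, a cargo receptor of the early secretory pathway, was 2.05-fold higher (log2 difference 1.04, SE 0.20, adjusted p = 0.121), and Sar1b, the GTPase that starts COPII coats, 1.85-fold (log2 difference 0.88, SE 0.26, adjusted p = 0.278). Among 16 N-glycosylation genes, 4 were higher in Wnt4hi and 0 in Wnt4low. These included Stt3a (log2 difference 0.77, SE 0.25, adjusted p = 0.345), a catalytic subunit of the oligosaccharyltransferase to which Ddost belongs, and Magt1 (log2 difference 0.80, SE 0.15, adjusted p = 0.114), an accessory subunit. Stt3b, also a catalytic subunit, had a lower mean in Wnt4hi (log2 difference -0.33, SE 0.19) and did not pass. Whether subunits of the complex differ from each other was not tested.

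Of 21 other folding and redox genes, 4 were higher in Wnt4hi and 1 in Wnt4low. With an array left out 1 to 4 were higher in Wnt4hi, the fewest without Wnt4hi replicate 2 or 4, and 1 in Wnt4low. Under the replicate block 2 were higher in either population. Ero1b, the oxidase of disulfide isomerases in the pancreas, had 10.97, 10.95 and 10.49 in Wnt4hi and 7.75, 10.16 and 9.63 in Wnt4low cells, a 3.08-fold difference without overlap (log2 difference 1.62, SE 0.61, adjusted p = 0.424). Wnt4low replicate 1 was again the lowest array. Fkbp11, a prolyl isomerase of secretory cells, had 9.77, 7.68 and 8.91 against 7.22, 7.61 and 7.50 (log2 difference 1.35, SE 0.51, adjusted p = 0.429). Its probe was well above background on 1 of 3 Wnt4low arrays, which limits this difference. Ppib, the ER cyclophilin that assists collagen folding, went the other way. It had 11.56, 11.13 and 11.75 against 12.63, 12.43 and 12.37, a 1.99-fold higher mean in Wnt4low (log2 difference -0.996, SE 0.20, adjusted p = 0.123). The 10 mesenchyme and pericyte markers, all with a lower mean in Wnt4hi, ranged from -1.86 (Pdgfrb) to -0.08 (Cspg4). The collagen genes among them, Col1a1, Col1a2 and Col3a1, were at -1.57, -1.06 and -1.18, and the arrays of Col1a2 overlapped. Whether the Ppib difference is related to these markers was not tested.

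The 20 targeting and translocation genes outside the members had a median of 0.08, and 2 were higher in Wnt4hi, Srp68 (log2 difference 0.84, SE 0.31, adjusted p = 0.413) and Srp14 (log2 difference 0.74, SE 0.25, adjusted p = 0.361), which encode proteins of the signal recognition particle. Of 19 further ERAD genes 2 were higher in Wnt4hi, Selenok at 0.57 and Erlec1 at 0.44. The 24 other genes of the UPR and of the integrated stress response had the lowest median of the 6 lists, -0.06. Sesn2, a stress-induced regulator of mTORC1, was higher in Wnt4hi (log2 difference 0.62, SE 0.16, adjusted p = 0.225). Cebpb, a transcription factor induced by ATF4, was higher in Wnt4low (log2 difference -0.52, SE 0.20, adjusted p = 0.447), as was Tsc22d3, the glucocorticoid-induced leucine zipper. With 11.00, 11.09 and 11.34 in Wnt4hi and 13.05, 12.66 and 12.98 in Wnt4low cells, Tsc22d3 was the only one of the 120 genes to pass after adjustment (log2 difference -1.75, SE 0.17, adjusted p = 0.0328). It did so under 10 of the 19 alternatives, and with an array left out its adjusted p in limma was 0.0590 to 0.137. Of the 14 further genes named, 6 passed the unadjusted threshold whichever array was left out (Tmed3, Sar1b, Magt1, Ppib, Sesn2 and Tsc22d3), and the other 8 lost the call without at least 1 array.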

How the data were processed

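RNA of FACS-sorted islet cells was amplified with a whole-transcriptome kit from picogram amounts and measured in the red channel (Cy5) of Agilent mouse SurePrint G3 arrays, 6 arrays on 1 slide with 1 sample each. The authors deposited the scanner output, which holds the intensity of every spot and its local background, not normalized. It was written by Feature Extraction 12.0.1.1 per the file headers, and the submitters' processing notes name version 9.1. Their own table of normalized log2 values, deposited as well, served only as an alternative. Its column medians were 8.91, its scale followed log2 of the scanner values, and deviations from a probe's mean followed those of the same array with r = 0.84 to 0.87 over 36690 probes for 5 arrays but with r = 0.27 for Wnt4hi replicate 2, so that this column may hold another sample.

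After the study's methods, the median intensity was corrected with normexp (offset 50), taken to log2 and normalized between arrays by quantiles (limma 3.58.1, R 4.3.3). Outlier spots (50 to 141 per array) were then left out, spots of a probe were averaged, and the brightest of a gene's probes stood for it. RefSeq names of the probes were matched to symbols of GRCm38.p6 (25126 of 27845 matched). The populations were compared by lmFit and eBayes on 45616 features, with Benjamini-Hochberg adjustment over all of them and the study's unadjusted threshold of 0.05 beside it. Groups and replicate numbers came from the sample labels. Nothing in the sources used here ties fractions of the same number to the same pups.

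Of 59305 spots that are not controls, 70.5% to 79.5% were well above background per array and 0 were saturated; precision is limited by the 3 arrays per population. The calculation was tested on simulated data. Array values are given for 13 core genes (Hspa5, Hsp90b1, P4hb, Xbp1, Atf4, Atf6, Ern1, Eif2ak3, Ddit3, Trib3, Wfs1, Herpud1 and Sel1l) and for up to 3 members per role group and direction with the largest difference past the unadjusted threshold, and further pathway genes are named by up to 2 per list and direction. Spcs1, Sec63 and other members were named after their values were seen. The members and lists were chosen with earlier results of these data known.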

Additional observations from a re-analysis of the deposited data

How the results depend on the processing

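Across 19 alternatives (background correction, scaling, probe choice, dim and outlier spots, variance model, the authors' table, the replicate block, the methods' t-test and each array left out), 0 members passed after adjustment, and the median difference of the members stayed between 0.26 and 0.44. The count toward Wnt4hi was 10 to 16 apart from 7 with a replicate block and 7 without Wnt4hi replicate 4 or Wnt4low replicate 1 (7 to 13 over the arrays left out). The count toward Wnt4low was 1 in the authors' table, which held 49 members, and 0 to 1 over the arrays left out. Whether the numbers pair the samples is not stated, and they were not taken as pairs. Replicates 1 and 2 occur in 1 population each. Same-numbered arrays deviated together with r = -0.03 (replicates 3) and 0.16 (replicates 4). Differently numbered arrays did so with r from -0.23 (Wnt4hi replicate 4 and Wnt4low replicate 1) to 0.18 (Wnt4hi replicate 2 and Wnt4low replicate 1). With 3 arrays per population such values cannot show whether fractions share pups. Sel1l turned to -0.0012 with cyclic loess and -0.30 under the block (-0.33 to 0.32 over the arrays left out), Atf4 to -0.047 in the authors' table and -0.057 under the block (-0.029 to 0.35), Atf6 to 0.13 in the authors' table (-0.29 to 0.19) and Eif2ak3 to 0.10 (-0.31 to 0.025). The cause was not tested, and the column of Wnt4hi replicate 2 in the authors' table did not follow its array. Chac1, Derl3 and Kdelr3 were not well above background on all arrays, which limits their differences. The median of the PERK-ATF4 output reached 0.05 in the authors' table and 0.01 without Wnt4hi replicate 2. Over all features, 200 passed after adjustment, 504 with dim probes left out (31996 tested), 406 in the authors' table, 326 with the probe of the smallest p, 0 under the block or the t-test and 0 to 5 with an array left out. Of the values of named members under the alternatives, 338 kept direction and side of the threshold, 41 lost the threshold, 4 gained it and 13 changed sign.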
